A study of Caenorhabditis elegans with 2 samples.

Results

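The 80 histone genes of Caenorhabditis elegans were examined for binding of CND-1-GFP by chromatin immunoprecipitation followed by sequencing (ChIP-seq). They were taken as the nuclear protein-coding genes whose symbol starts with his- (72 genes) or hil- (8 genes), out of 19973 protein-coding genes in the Ensembl annotation of the WBcel235 assembly. Ensembl gives only 58 distinct symbols to these genes, so each was named by the symbol that RefSeq pairs with its WormBase identifier, which is distinct for all 80. CND-1 belongs to the NeuroD family of basic helix-loop-helix transcription factors. The embryos were of strain OP349, which carries the unc-119(ed3) III allele and the wgIs349 transgene, from which CND-1 is made with GFP and FLAG at its C-terminus. They were of mixed sex and mixed embryonic stage, collected by bleaching at a labelled age of 3 hours. The description of the samples names an antibody against GFP, while another label field gives the antibody as cnd-1. There was 1 group of 2 biological replicates of this single transgenic line and no second condition, and the labels' control experiment was not used here. The labels do not give the promoter or expression pattern of the transgene, and peak lists of whole embryos do not show in which cells a site was bound.

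The authors deposited 1 list of 30000 regions for each replicate and 1 for the pooled reads, which hold peaks together with background, and a thresholded list chosen from the pooled list by reproducibility between replicates. Of the thresholded peaks, 1940 were nuclear. A gene was called bound when a thresholded summit, the position of highest enrichment in a peak, lay in the window that reaches from 1500 bp before an annotated transcript start to 500 bp past it. Each peak carries a signal, the authors' own non-negative enrichment value with no stated scale, which was used here only to describe and rank peaks within a list. Sequencing depth is unknown from such lists. Peaks per replicate were called by the authors, so each replicate gives its own positions and ranks, but these lists also served the authors in choosing the thresholded peaks, and agreement between them is partly built in. Intervals given beside shares are 95% exact Clopper-Pearson intervals, which cover counting only and treat members as independent. Neighbouring histone genes share peaks, so the intervals for shares of histone genes are too narrow.

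Histones are the proteins that package DNA. The core histones H2A, H2B, H3 and H4 form the nucleosome, around which DNA is wound, and the linker histone H1 binds the DNA between nucleosomes. Canonical core histone genes of animals are transcribed mainly during S phase, when newly copied DNA needs new nucleosomes, and in C. elegans they lie in repeated clusters in which a gene is often paired head to head with that of its partner, H2A with H2B and H3 with H4. Histone H3.3 is a variant of H3 that is also placed into chromatin outside S phase. CND-1 and its relatives bind the E-box, CANNTG, as dimers.

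The sequences that carry the pattern are those of the spacers between divergent genes. The 100 bp centred on the summit are printed for the 5 strongest histone peaks on chromosomes IV and V, and for the weaker peaks of his-63/his-64 and his-37, which were added because they hold the motif described here. The letters are from the RefSeq copy of the WBcel235 assembly, 5′ to 3′. They are turned where needed so that an 11-base motif, TGTCCNNGCAG, reads forward, and capitals mark each match to it. This motif was picked from words that the unique spacers share, after they had been seen, so its counts in these spacers are a description and have no test. The his-31/his-32 window is IV:8334126-8334225 (plus strand), the his-60/his-59 window IV:7488051-7488150 (minus strand), the his-61/his-62 window IV:7486335-7486434 (plus strand), the his-4/his-3 window V:16040592-16040691 (minus strand), the his-6/his-5 window V:8535047-8535146 (plus strand), the his-63/his-64 window IV:11406943-11407042 (plus strand) and the his-37 window V:9546963-9547062 (plus strand).
his-31/his-32: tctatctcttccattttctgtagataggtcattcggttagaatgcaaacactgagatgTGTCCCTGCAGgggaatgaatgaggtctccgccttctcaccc
his-60/his-59: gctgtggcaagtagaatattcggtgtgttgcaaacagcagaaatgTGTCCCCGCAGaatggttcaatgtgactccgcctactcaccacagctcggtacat
his-61/his-62: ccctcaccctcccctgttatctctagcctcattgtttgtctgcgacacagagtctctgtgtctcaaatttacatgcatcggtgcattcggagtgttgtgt
his-4/his-3: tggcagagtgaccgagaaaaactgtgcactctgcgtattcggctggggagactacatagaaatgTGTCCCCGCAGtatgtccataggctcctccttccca
his-6/his-5: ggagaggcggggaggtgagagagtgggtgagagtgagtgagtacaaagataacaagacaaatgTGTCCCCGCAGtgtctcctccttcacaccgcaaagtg
his-63/his-64: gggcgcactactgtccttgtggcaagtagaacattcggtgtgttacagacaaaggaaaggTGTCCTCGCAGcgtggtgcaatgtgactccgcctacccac
his-37: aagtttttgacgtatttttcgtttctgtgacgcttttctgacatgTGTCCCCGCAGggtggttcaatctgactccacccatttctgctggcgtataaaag
The his-61/his-62 window holds no match, but 2 matches lie in the same spacer, 68 and 72 bp from the summit. Of all 16 histone summit windows, 9 hold no match, among them those of his-24 and hil-7, whose peaks are stronger than that of his-63/his-64, and that of his-72.

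CND-1-GFP peaks lay at 25 of the 80 histone genes (31.2%, interval 21.3 to 42.6), where 7.38% of all protein-coding genes were bound. These 25 genes share 16 distinct peaks, because the summit between divergent genes falls in the windows of both. The strongest histone peak, between the H4 gene his-67 and the H2A gene his-68, ranked 13 of 1940 by signal (762.77). The histone peaks had a median signal of 161 and ranged from 111.45 to 762.77, beside a median of 150.0 for all nuclear thresholded peaks. Of the 16, 11 lay above that median and 5 lay in the strongest 25% of all nuclear thresholded peaks. These counts are small, and their difference from all peaks was not tested. Within the windows that selected them, 14 of the 16 summits lay within 500 bp of a histone start, with a median distance of 125 bp. Over all nuclear peaks the median distance to the nearest protein-coding start was 814 bp. Those peaks were not chosen by a window around a start, so the medians cannot be compared. Genes for tRNA, snoRNA and snRNA were more than 100 bp away from all 16 summits.

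The bound pairs of core histone genes are described from the strongest to the weakest peak. The his-67/his-68 summit at I:9988781-9989152 had a signal of 762.77 in the pooled reads, 344.13 in replicate 1 (rank 14) and 420.13 in replicate 2 (rank 12). The peak between his-31 (H4) and his-32 (H3), at IV:8333945-8334302, had 462.48, with 195.28 in replicate 1 (rank 112) and 272.47 in replicate 2 (rank 55). The peak between his-60 (H4) and his-59 (H3), at IV:7487970-7488255, had 393.24, with 169.72 in replicate 1 (rank 167) and 217.21 in replicate 2 (rank 108). These 3 peaks ranked higher in replicate 2 than in replicate 1, and all 3 lie between a gene for H4 and a gene for another core histone.

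Next to his-60/his-59 on chromosome IV, the peak between his-61 (H2A) and his-62 (H2B), at IV:7486265-7486557, had a signal of 315.93, with 174.41 in replicate 1 (rank 153) and 139.87 in replicate 2 (rank 316). The peak between his-4 (H2B) and his-3 (H2A), at V:16040522-16040775, had 297.82, with 144.98 in replicate 1 (rank 236) and 159.91 in replicate 2 (rank 231). These are the 2 bound pairs among 16 pairs of H2A and H2B genes. Among 14 pairs of H3 and H4 genes 5 were bound, with signals from 137.19 to 462.48. These counts cannot be compared as they stand, because most pairs without a shared peak have repeated spacers, as described below. Among pairs with a unique spacer, as defined below, only his-35/his-41 (H2A and H2B) and his-38/his-40 (H3 and H4) lacked a shared thresholded summit.

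The remaining bound H3 and H4 pairs had signals closer to the median of all peaks. The peak between his-6 (H3) and his-5 (H4), at V:8535012-8535201, had a signal of 183.98, with ranks of 788 and 601 in replicates 1 and 2, and its summit also fell within the window of his-39, 1416 bp upstream of that gene's start. The peak between his-63 (H3) and his-64 (H4) had 156.71 (ranks 746 and 1132). The peak at his-2 (H3) and his-1 (H4) had 137.19 (ranks 742 and 2467), and its summit lay 14 bp inside his-1, not in the spacer. RefSeq names his-39 only as a protein with a histone H2A/H2B/H3 domain, and it was counted in no class.

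Of 31 divergent histone pairs, with spacers of 227 to 368 bp (median 258), 8 shared a thresholded summit, and in 7 of these the summit lay inside the spacer, 1.5 to 32 bp from its centre (median 7.5). The same share over other close divergent gene pairs is not given here, so whether shared summits are particular to histone pairs cannot be told. The 8 bound pairs were all among the 10 whose spacer is unique sequence, meaning that at least 90% of its 50-base words occur once in the genome on either strand. In the other 21 pairs the spacer is repeated in full or in part, and 0 of these had a shared thresholded summit. In 17 of the 31 pairs the spacer holds no unique 50-base word at all, and 16 pairs have a spacer identical to that of another pair, in 6 sets of 2 to 4 pairs.

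**Figure D1:**
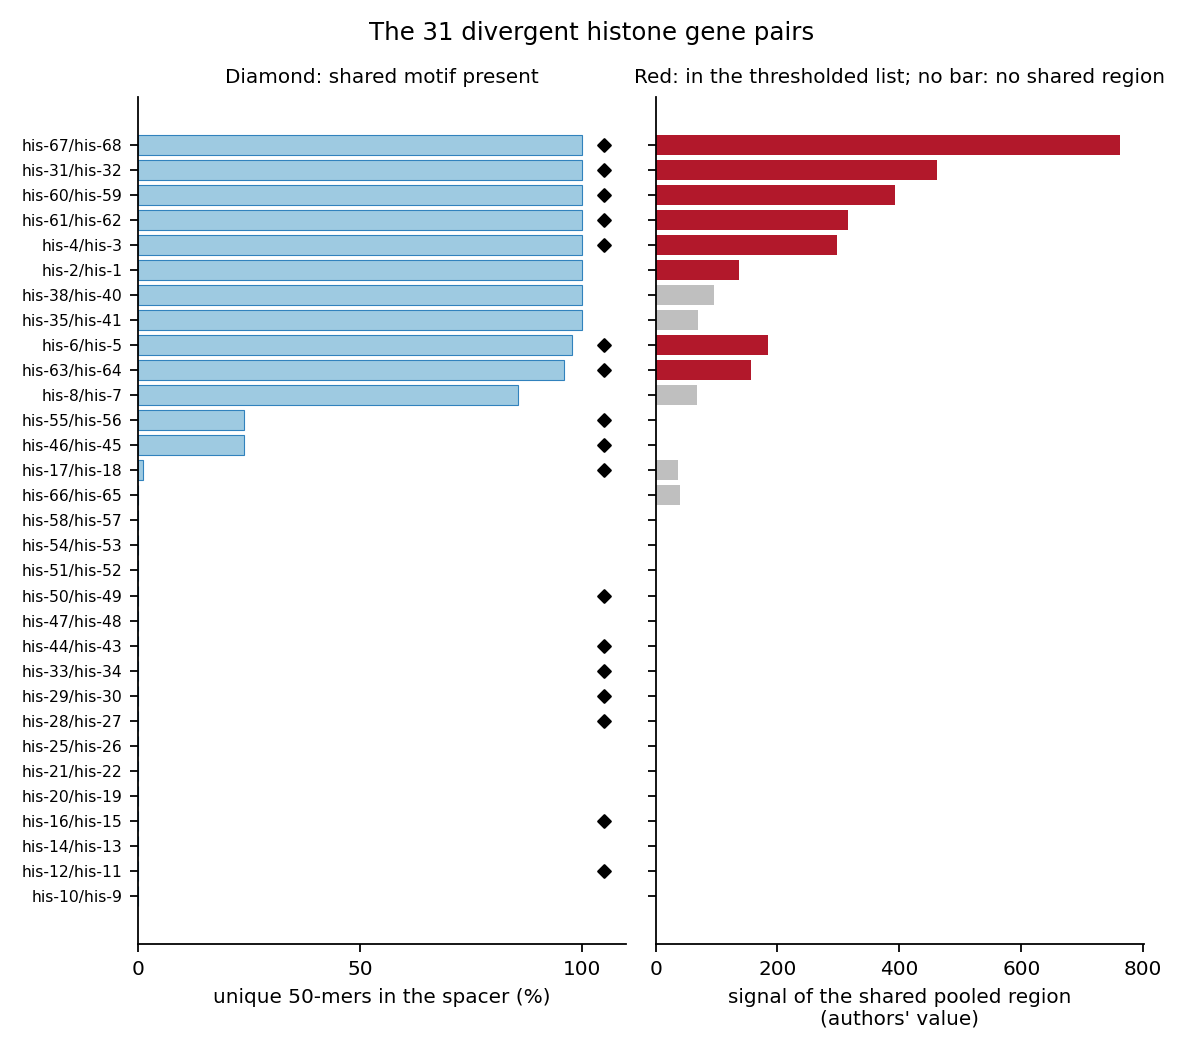
The 31 divergent histone pairs, ordered by the share of their spacer's 50-base words that occur once in the genome (left, in percent; diamonds mark spacers with the TGTCCNNGCAG motif), with the authors' signal of the pooled region whose summit lies in the windows of both genes (right; red bars are in the thresholded list, grey bars are not). The 8 red bars are all among the 10 pairs with at least 90% unique spacers, while the diamonds are found in both kinds of spacer.

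The 2 pairs with unique spacers and no thresholded summit had weaker regions in the pooled list. The region shared by his-38 (H4) and his-40 (H3) on X had a signal of 96.23 and ranked 2226, just under the lowest nuclear thresholded signal of 103.07. The region shared by his-35 (H2A) and his-41 (H2B) had 69.4 and ranked 4857. Both genes of the latter pair still counted as bound through peaks farther away: his-35 through a summit 1057 bp upstream, inside the neighbouring gene C50F4.6 (signal 112.41), and his-41 through a summit 1105 bp upstream, 205 bp upstream of mdf-1 (signal 111.45). These are the 2 of the 16 peaks whose nearest protein-coding start is not that of a histone gene. The first of them also lies in the window of his-37.

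Whether sequence can be told apart from its copies differed strongly between histone genes and the rest. The gene windows of histone genes had a median of 54.7% unique 50-base words, beside 100% for all protein-coding genes. Of the 27 histone genes with windows at least 90% unique, 15 were bound (55.6%, interval 35.3 to 74.5), where 7.86% of the 17603 protein-coding genes with such windows were bound. Of the 53 with less unique windows, 10 were bound (18.9%, interval 9.44 to 32%), where 3.8% of all such genes were bound. The corresponding counts for the pooled 30000-region list were 24 of 27 (88.9%), beside 52.5% of genes with unique windows, and 24 of 53 (45.3%), beside 32.8% of genes with less unique windows.

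In all, 27 histone genes had a summit in none of the 4 lists, and 26 of them have windows under 50% unique, with a median of 0.0%. Among them were all 6 genes of the cluster from his-49 to his-54 on V, whose windows are 0.0% unique. The exception was hil-8, an H1 domain gene with a window 97.7% unique. Across the nuclear genome, 9130 of 334240 tiles of 300 bp (2.73%) had under 10% unique words, whereas 13 of 29976 pooled regions, 17 of 29978 regions of replicate 1 and 12 of 29974 of replicate 2 were centred on such sequence. The sources used here give neither the read length nor the handling of reads that match several places, so at the repeated genes a region that was not listed cannot be told apart from a site that was not bound.

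**Figure D2:**
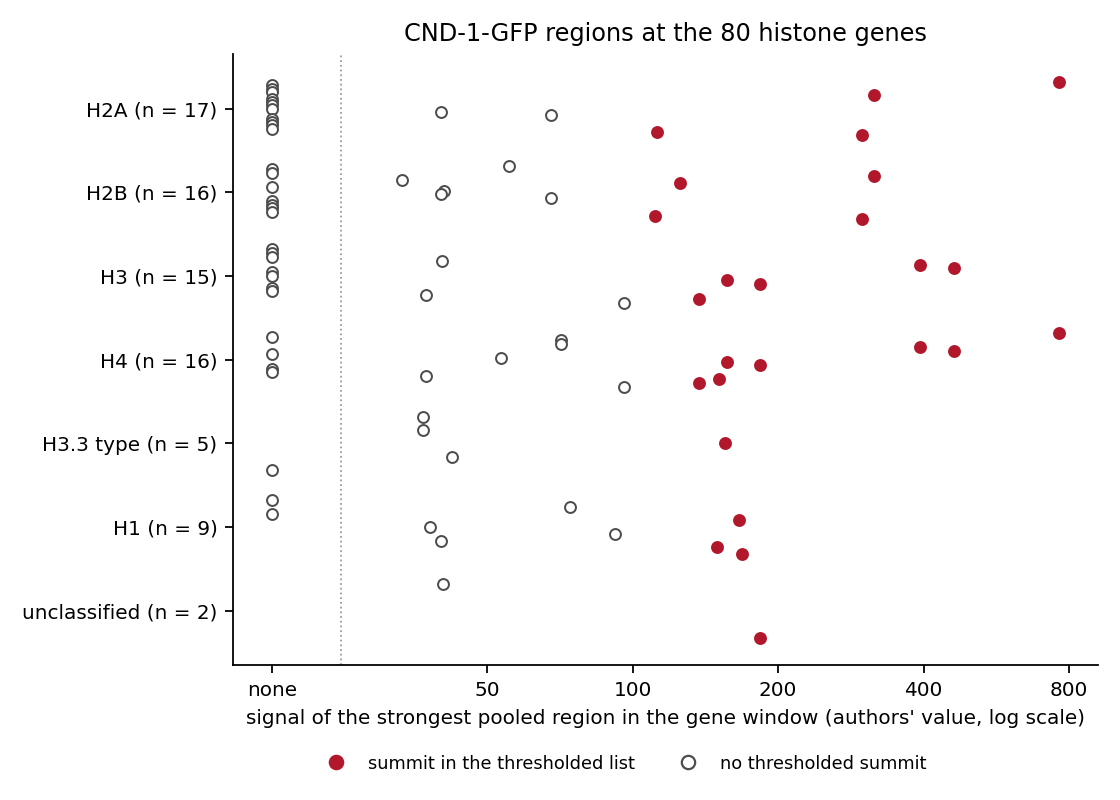
Signal of the strongest pooled region in the window of each of the 80 histone genes, by class (each point is 1 gene; log scale; points at "none" have no summit in the pooled list; filled points have a thresholded summit). H2A, H2B, H3 and H4 genes have either a region in the thresholded list, with signals up to 762.77, or mostly a weak one or none, and the 3 bound H1 genes lie between 149.61 and 168.85.

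By class, 4 of 17 H2A genes (his-68, his-61, his-35 and his-3), 4 of 16 H2B genes (his-62, his-34, his-41 and his-4), 5 of 15 canonical H3 genes (his-59, his-32, his-63, his-6 and his-2) and 7 of 16 H4 genes (his-67, his-60, his-31, his-64, his-5, his-37 and his-1) were bound. Among the core histone genes with unique windows, 11 of 13 were bound (84.6%, interval 54.6 to 98.1), beside 7.86% of all protein-coding genes with such windows. The exceptions were his-38 and his-40. Of the 11, his-35 and his-41 were called only through summits 1057 and 1105 bp upstream, nearer to the starts of other genes. Of the 51 core genes with less unique windows 9 were bound. The H2B gene his-34 has a repeated promoter of its own and was called bound through a peak 1237 bp upstream, which lies 430 bp downstream of the his-32 start (signal 125.13). The H4 gene his-37 has no divergent partner and had its own summit 92 bp upstream of the start, with a signal of 151.08 and ranks of 727 in replicate 1 and 1200 in replicate 2.

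The linker histone and H3.3 genes all have unique windows, and 4 of these 14 genes were bound (28.6%, interval 8.39 to 58.1), a share that overlaps in its interval with that of the core genes. No test was made of this difference. The 3 bound linker genes, of 9, were his-24, with a summit 17 bp inside its transcribed region (signal 168.85), hil-7, with a summit 227 bp upstream (166.24), and hil-3, with a summit 6 bp upstream (149.61). Their ranks were 544 and 1273 (his-24), 553 and 939 (hil-7) and 819 and 1455 (hil-3) in replicates 1 and 2, each higher in replicate 1.

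The other 6 linker genes had weaker regions or none. In the pooled list hil-4 had a signal of 92.15 (rank 2434, 49 bp upstream), hil-5 had 74.19 (rank 4078), hil-1 had 40.25 and hil-6 had 38.1. A region at hil-2 was listed in replicate 2 alone, with a signal of 97.34 and rank 669, and no summit was found in its window in replicate 1 or in the pooled list. A pooled summit did lie past the end of that window, 682 bp from the TGTCCNNGCAG match upstream of hil-2. The replicates thus differ within the hil-2 window, and hil-8 was in no list.

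Of the 5 genes for H3.3-type proteins, his-72 alone was bound, with a summit 29 bp upstream of a start (signal 155.11; 78.55 and rank 881 in replicate 1, 91.06 and rank 763 in replicate 2). The genes his-69 and his-70, side by side on III, shared a pooled region with a signal of 36.78, and his-74 had one with 42.32. A summit at his-71 was listed in replicate 2 alone, with a signal of 19.83. The unclassified gene his-73 had a pooled region with a signal of 40.54. The unbound core genes with the strongest pooled regions after his-38 and his-40 were his-10 and his-26, both H4 genes, which share a region with a signal of 70.99 that lies 1148 and 1009 bp upstream of their starts.

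The full replicate lists served in choosing the thresholded peaks, so agreement with them is partly built in. The share of all thresholded peaks matched in them is not given here. In both lists, a summit lay within 100 bp of each of the 16 histone peaks. The summits lay a median of 9.0 bp away in replicate 1 (at most 39 bp) and 1.0 bp away in replicate 2 (at most 61 bp). Their ranks ran from 14 to 1475 in replicate 1 and from 12 to 2906 in replicate 2, with 10 of the 16 ranked higher in replicate 1. In each replicate, the strongest regions were also taken by themselves, as many as the thresholded list holds. These gave 25 bound histone genes in replicate 1 (31.2%, beside 7.18% of all genes) and 21 in replicate 2 (26.2%, interval 17.0 to 37.3, beside 7.18% of all genes). The full lists of 30000 regions separate histone genes from the rest less: 48 genes in the pooled list (60.0%, beside 50.2% of all genes), 45 in replicate 1 (56.2%, beside 51.1%) and 46 in replicate 2 (57.5%, beside 50.1%).

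**Figure D3:**
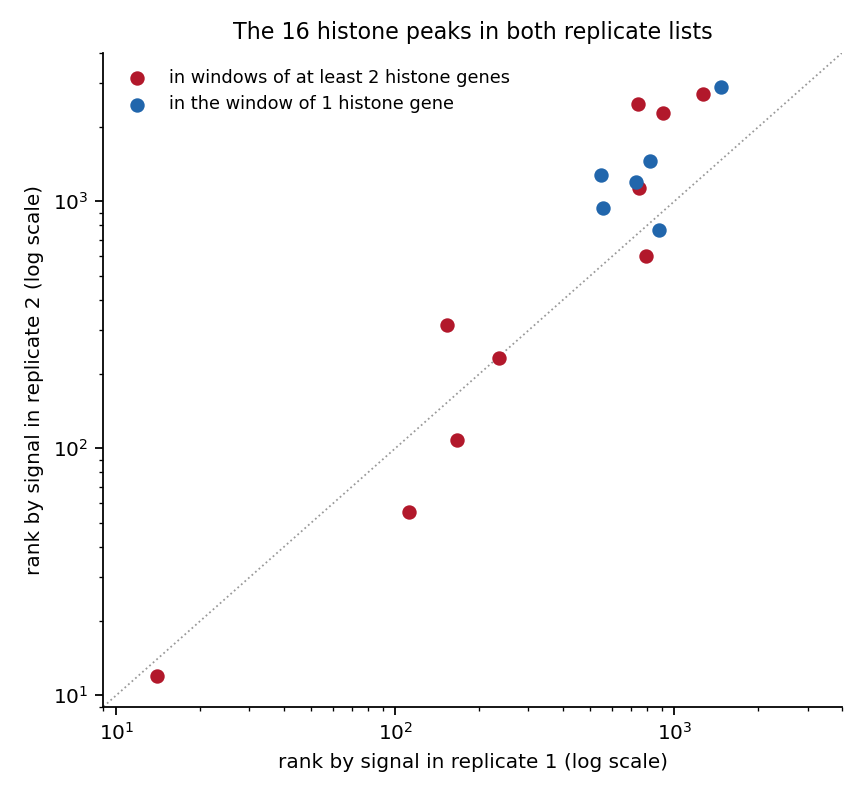
Rank by signal of the 16 histone peaks in the full list of replicate 1 (horizontal) and of replicate 2 (vertical), both on log scales, with the dotted line marking equal ranks (red points lie in windows of at least 2 histone genes, blue points in that of 1). The 5 strongest peaks rank between 12 and 316 in both replicates, and the weaker ones mostly rank higher in replicate 1.

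The TGTCCNNGCAG motif, shown in capitals above, was present on either strand in the 100 bp at 7 of the 16 histone summits (43.8%) and at 5 of the other 1924 nuclear thresholded summits (0.26%). It was chosen after the histone summit windows had been seen, so the histone share is a description and was not tested. In the 300 bp upstream of the starts of genes, it was found at 35 of 64 core histone genes (54.7%) and at 10 of the 19893 protein-coding genes that are not histone genes (0.0503%). By class these were 8 of 17 H2A, 7 of 16 H2B, 9 of 15 H3 and 11 of 16 H4 genes. It was also upstream of 2 of 9 linker genes, which were his-24 and hil-2, and of 0 of 5 H3.3-type genes. Matches of overlapping upstream windows are shared between the genes of a pair.

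Of the 31 divergent spacers, 17 hold the motif. They include 7 of the 8 with a shared thresholded summit, all but his-2/his-1, and 10 of the 21 repeated spacers, which had no shared thresholded summit. The match lay 1 bp from the summit in his-60/his-59, 13 bp in his-31/his-32, 15 bp in his-63/his-64, 18 bp in his-6/his-5, 20 bp in his-4/his-3, 44 bp in his-67/his-68 and 68 bp in his-61/his-62. At his-37 the summit lay in the match itself, and at his-24 a match lay 70 bp from the summit.

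**Figure D4:**
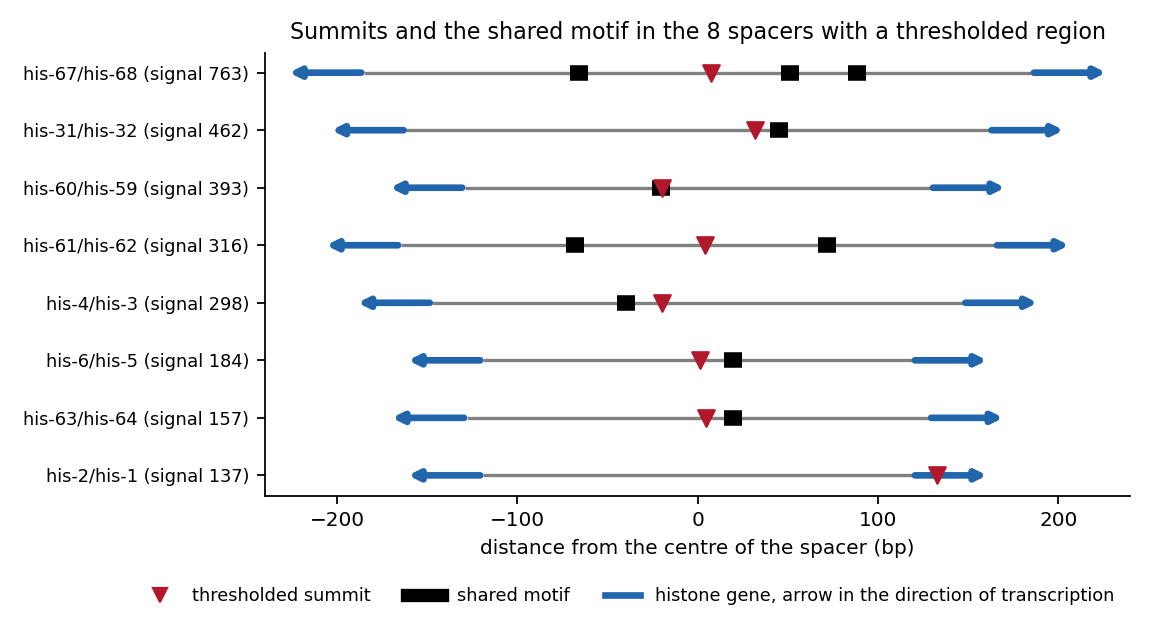
The 8 divergent spacers with a shared thresholded summit, drawn to scale around their centres (horizontal axis in bp), with the thresholded summit (red triangle), matches to TGTCCNNGCAG (black) and the flanking histone genes (blue arrows, shown in part). In 7 spacers the summit lies within 32 bp of the centre and a motif match lies 1 to 68 bp from it, and in his-2/his-1 the summit lies 14 bp inside his-1 and the spacer has no match.

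In the nuclear genome there were 274 matches in all, 24 of them within 500 bp of a histone gene. Of the 12 of these in unique sequence (a 300 bp window at least 90% unique), 11 lay within 100 bp of a thresholded summit (91.7%), the exception being the match at hil-2. The motif was picked from the unique spacers, so this share is a description and was not tested. Where a match and a summit both lie in 1 short spacer, a distance within 100 bp is also largely set by position. Of the 11 matches, 3 lie in the his-67/his-68 spacer and 2 in that of his-61/his-62. Of the 12 near histone genes in less unique sequence, 1 lay within 100 bp of a thresholded summit, that in his-4/his-3. Away from histone genes, 5 of 209 matches in unique sequence lay within 100 bp of a thresholded summit (2.39%) and 34 within 100 bp of a pooled summit (16.3%). In less unique sequence away from histone genes, 4 of 41 matches lay within 100 bp of a thresholded summit (9.76%), a higher share than in unique sequence there. These 4 are neighbouring pairs of matches (III:8901231 and III:8901293, V:10341962 and V:10342024), each pair at a single summit. Among the 5 in unique sequence, IV:8399981 and IV:8400043 are also such a pair, so the shares count matches and not peaks. The other 204 matches in unique sequence away from histone genes had no thresholded summit that near.

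Pairs without a thresholded peak hold the same or nearly the same letters around the motif as bound pairs. The 41 bases around the motif of his-6/his-5, shown because 4 pairs on V share them letter for letter, stand for a spacer that is 97.9% unique and has a thresholded peak, for 2 spacers with no unique word and for 1 that is 1.1% unique. The stretches are V:8535095-8535135 (his-6/his-5), V:8889880-8889920 (his-28/his-27, minus strand) and V:8898110-8898150 (his-17/his-18), and the fourth pair is his-50/his-49. The stretch at his-46/his-45 (IV:11326417-11326457, minus strand), whose spacer is 23.9% unique, is printed beside that of the bound pair his-63/his-64 (IV:11406988-11407028), from which it differs at 1 base.
his-6/his-5: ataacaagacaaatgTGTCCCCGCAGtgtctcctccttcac
his-28/his-27: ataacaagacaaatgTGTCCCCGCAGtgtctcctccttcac
his-17/his-18: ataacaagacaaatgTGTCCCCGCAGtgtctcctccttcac
his-63/his-64: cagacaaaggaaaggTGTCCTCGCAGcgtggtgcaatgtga
his-46/his-45: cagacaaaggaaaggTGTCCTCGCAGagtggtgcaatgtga
Capitals mark the motif. Of these, his-17/his-18 had a weak region in the pooled list (signal 37.33, rank 22608) and in replicate 2 (signal 22.98), and his-28/his-27 and his-46/his-45 shared none.

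Other short sequences known from promoters were counted on either strand in the same 300 bp upstream windows. TATAAA, the TATA box core, was present at 48 of 64 core histone genes (75.0%), beside 39.5% of protein-coding genes other than histone genes. CTCCGCC, also picked after the spacers had been seen, was present at 42 of 64 (65.6%), beside 4.53%. At the summits themselves CTCCGCC was found in 4 of 16 histone windows (25%) and in 4.05% of the other 1924.

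The comparison of E-boxes between histone summits and other summits depended on the length of the window. Of the 16 windows of 100 bp, 9 held CANNTG (56.2%, interval 29.9 to 80.2), beside 49.3% of other thresholded summits, a share within that interval. In 200 bp, 15 of 16 held it (93.8%, interval 69.8 to 99.8), beside 67.2% of the others, a share just below the interval. In 100 bp windows centred 300 bp to the left the shares were 18.8% (3 of 16) and 30.2%. CAGATG was present at 2 of 16 histone summits (12.5%, interval 1.55 to 38.3), beside 17.5% of the others, and in 200 bp the order turned, with 4 of 16 (25%) beside 23.5%. The 2 in 100 bp were the his-67/his-68 summit and the summit inside C50F4.6. The summit windows of his-31/his-32, his-60/his-59, his-61/his-62 and his-4/his-3, which have the strongest histone peaks after his-67/his-68, hold no E-box in 100 bp. The GC content of the histone windows had a median of 49.5%, beside 50% for the others. In the 300 bp upstream of starts, CANNTG was present at 54 of 64 core histone genes (84.4%), beside 66.0% of genes other than histone genes. For CAGATG these were 19 of 64 (29.7%) and 9.77%. Upstream of bound and unbound histone genes the shares were 76.0% and 85.5% for CANNTG, and 24.0% and 30.9% for CAGATG. Paired and repeated genes share matches, and no test was made.

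Genes whose products regulate histone synthesis, place histones into chromatin or are histone variants under other symbols were looked at alongside. The list of 17, all outside the his- and hil- symbols, was put together by hand from general knowledge. It was made with earlier results of these data known, so its share is a description and was not tested. Bound were 6 of them (35.3%, interval 14.2 to 61.7), where 7.38% of all protein-coding genes were bound. They were chaf-2, for a subunit of the chromatin assembly factor CAF-1 (signal 217.9), cdl-1, for the stem-loop binding protein that acts on histone mRNA (201.97), lin-53, for a histone-binding WD-repeat protein (179.18), unc-85, for an ASF1 histone chaperone (149.55), htz-1, for the variant H2A.Z (144.14), and spt-16, for a FACT subunit (112.86). Unbound were 11, among them the other ASF1 gene asfl-1 (pooled signal 45.57), the CAF-1 subunit gene chaf-1 (54.47) and the CENP-A genes hcp-3 (66.54) and cpar-1, which had no pooled summit. The other unbound genes were xnp-1 (pooled signal 94.35), knl-2 (88.8), rba-1 (70.83), nap-1 (57.95), hira-1 (57.08), hmg-3 (38.52) and hmg-4 (36.61).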

How the data were processed

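Peaks were called by the authors on ce11, per the labels, which is the same assembly as WBcel235. The sources used here name no aligner, peak caller or reproducibility limit. In the deposited lists the signal is the authors' own enrichment value per region. The deposited −log10 q-value was not used, because most peaks share its maximum. Gene starts were those of protein-coding transcripts in Ensembl release 115. At his-1 the annotated start is the first base of the ATG start codon, so distances there and the spacer hold any untranslated 5′ sequence. How many other histone genes are annotated in this way was not counted. Uniqueness was computed by counting every 50-base word of the reference on both strands, and the counting was tested on simulated data. Motifs were searched on both strands. Python 3.11.15, pandas 2.3.3 and scipy 1.17.1 were used. No test was run, since there is 1 group of 2 replicates. The members and lists were chosen with earlier results of these data known. Named were all bound histone genes, all linker and variant H3 genes, the 6 unbound histone genes with the strongest pooled region, and the regulator list. Other unbound genes were named after their values or sequences had been seen. The windows to print were those of the 6 strongest histone peaks after his-67/his-68, whose window was not printed. That of his-24, the last of them, was left out because it runs into its transcript. Those of his-63/his-64 and his-37 were added after the motif had been seen, because they hold it.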

Additional observations from a re-analysis of the deposited data

How the results depend on the processing

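No paired analysis was possible because there is only 1 group. The main counts and shares were recomputed under other settings. Assigning each summit to the nearest gene alone left 13 bound histone genes in place of 25. Of the 12 lost, 8 are the partner in a pair with a shared summit and 4 (his-34, his-39, his-35 and his-41) have peaks nearer to another gene. The share of all protein-coding genes bound under that rule is not given here, so the 13 cannot be set beside the 7.38% found with windows. Keeping only the stronger part of the thresholded list raised the median histone signal from 161 to 176, since weaker peaks drop out. The share of histone peaks in both replicate lists fell from 100% to 75.0% when only the strongest regions of each replicate counted. The same shares over all thresholded peaks are not given here. The share with an E-box rose from 56.2% to 93.8% in 200 bp, where other thresholded summits reached 67.2%, and that with CAGATG from 12.5% to 25%, where others reached 23.5%. With 1 replicate at a time, bound histone genes numbered 21 to 25, distinct peaks 13 to 16 and bound pairs 7 to 8. The motif share was 56.2% in 200 bp, an alternative added after seeing the data, beside 0.312% of other summits. The number of histone windows counted as unique was 27 with words of 50 bases, 20 with 36 and 31 with 100. Limits are the unknown depth, the unused control and the repeated sequence, in which regions are rarely listed.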

Other observations

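The pair his-8/his-7 (H2B and H2A) has a spacer 85.6% unique and no TGTCCNNGCAG match, and it shared a pooled region with a signal of 67.7 (rank 5212), with its summit 15.5 bp from the centre of the spacer. The 3 pairs with unique spacers and no match were his-2/his-1, with a thresholded peak, and his-38/his-40 and his-35/his-41, with none.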
